A study of Mus musculus with 12 samples.

Results

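The BCL2 family proteins control the permeability of the mitochondrial outer membrane, the step at which a damaged cell commits to the intrinsic pathway of apoptosis. The effectors BAX and BAK form pores in that membrane, the anti-apoptotic proteins BCL2, BCL-XL and MCL1 hold them in check, and the BH3-only proteins either activate the effectors or occupy the anti-apoptotic proteins. After DNA breakage, p53 is known to switch on several of these genes, and E2F1 can do so as well. Fibroblasts often survive such damage and arrest instead of dying.

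These 10 members of the family were examined by name, Pmaip1 (NOXA), Bbc3 (PUMA), Bcl2l11 (BIM), Bid, Bad, Bax, Bak1, Bcl2, Bcl2l1 (BCL-XL) and Mcl1. All 10 are among the 37991 gene identifiers in the count files, and all 10 passed the filter on low counts that left 15327 genes for testing. The RNA came from primary mouse embryonic fibroblasts (MEFs) of the FVB strain, isolated at embryonic day 13.5, grown in 5% O2 and used at passage 3. Cells were wild-type or homozygous for E2f1 3KR, a constitutive knock-in in which 3 lysines of E2F1 that can be acetylated are replaced, so that every cell type of the embryo carried it. Each genotype was left untreated or given neocarzinostatin (NCS), a drug that breaks both DNA strands, at 250 ng/ml for 3 h, with 3 samples in each of the 4 groups. The study describes its graphs of these counts as drawn from independent experiments, and which embryos the samples of a group came from is not given in the sources used here, so the p-values describe the spread between these samples.

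Sequencing gave 33203757 to 45279321 gene-assigned reads a sample, and the least abundant of the 10 genes, Bcl2, had at least 135 reads in every sample. The fibroblast label was borne out by 12 fibroblast markers, led by Col1a1, which summed to 63400 to 65550 CPM (reads of a gene per 1000000 counted reads) in wild-type and 69680 to 74660 CPM in 3KR samples. A pair of properties of the libraries matters for all that follows. The replicates numbered 3 of the wild-type MEFs stood apart from the other wild-type replicates in both treatments, since their counts differed from replicates 1 and 2 by 7.57 to 9.37 units of chi-square for each gene, while replicates 1 and 2 differed by 2.25 and 2.27, whereas the 3KR replicates differed among themselves by 2.04 to 2.34. The counts of called genes for the 10 members and the gene lists below, cell markers aside, are therefore also given without these libraries. The second property is sex. Xist, expressed from the inactive X chromosome of females, ran from 32.3 to 62.5 normalized counts among wild-type and from 30590 to 35630 among 3KR libraries, and the Y-linked gene Ddx3y from 5370 to 5822 and from 7.001 to 16.2, so sex and genotype cannot be told apart.

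NCS raised most of the pro-apoptotic genes and also most of the anti-apoptotic ones. In wild-type MEFs 6 of the 10 genes rose (Pmaip1, Bbc3, Bcl2l11, Bax, Bcl2l1 and Mcl1), Bid fell and Bad, Bak1 and Bcl2 did not pass the test. In 3KR MEFs the same 6 genes rose, Bid and Bcl2 fell, and Bad and Bak1 did not pass. Of all tested genes, 26.7% changed with NCS in wild-type MEFs, 14.3% upward and 12.4% downward, and 30.8% changed in 3KR MEFs, 15.8% upward and 15% downward. The median log2 fold change of the 10 genes was 0.29 in wild-type and 0.23 in 3KR MEFs, where that of all tested genes was 0.0054 and -0.00078. Without the wild-type replicates numbered 3 the counts were again 7 and 8 genes called, while the shares of all tested genes called were 32.7% and 39.7%. The test was the quasi-likelihood test of edgeR with Benjamini-Hochberg adjustment over all tested genes and a threshold of 0.05, and all adjusted p-values below come from it unless another tool is named.

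Between the genotypes the differences ran one way. In untreated 3KR MEFs 7 of the 10 genes were lower than in wild-type MEFs (Pmaip1, Bbc3, Bcl2l11, Bax, Bcl2, Bcl2l1 and Mcl1), none was higher, and Bid, Bad and Bak1 did not pass. After NCS the same 7 were lower. The background was wide here, since 45.7% of all tested genes differed between untreated genotypes, 22.1% higher and 23.6% lower in 3KR MEFs, and 46.5% after NCS, 22.9% higher and 23.6% lower. The median log2 difference of the 10 genes was -0.22 untreated and -0.16 after NCS, against -0.00036 and 0.0037 for all tested genes. Without the wild-type replicates numbered 3 the counts were 6 and 7, with 48.8% and 49.7% of all tested genes called, and Bcl2 in untreated cells was the gene that no longer passed. The wild-type and 3KR samples also differed in cell markers. Of the 12 fibroblast markers 10 were higher and 2 lower in untreated 3KR MEFs, and 9 were higher and 2 lower after NCS. The 14 macrophage markers, led by Lyz2 and none at 0, summed to 126 to 151 CPM in wild-type and 229 to 260 in 3KR samples. In 3KR MEFs 13 of them were higher untreated and 11 after NCS, and none was lower. The 10 Schwann cell markers, led by Ngfr, summed to 225 to 240 and 46.1 to 55.2. Of these, 7 were lower in 3KR MEFs in both treatments, and 1 was higher after NCS. The 8 endothelial markers, nearly all of it Flt1, summed to 102.5 to 108 and 177 to 194, with Pecam1 at 0 in 3 samples and Tie1 at 0 in 10 samples. Of the 6 endothelial markers tested, 1 was higher and 1 lower in 3KR MEFs in both treatments, so the list did not move 1 way. The 8 skeletal muscle markers, mostly Des, summed to 135 to 145 and 53.3 to 58.6, with Myf5 at 0 in 11 samples. Of the 4 muscle markers tested, 2 were lower in 3KR MEFs untreated and 3 after NCS, and none was higher. The 7 epithelial markers, mostly Krt18, summed to 2.34 to 2.72 and 2.39 to 3.32. Only 3 epithelial markers were tested, and 2 were higher and 1 lower in 3KR MEFs in both treatments. The part of these differences in the genotype differences of the BCL2 family was not tested, and in bulk RNA fewer cells of a type and less RNA per cell cannot be told apart.

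**Figure D1:**
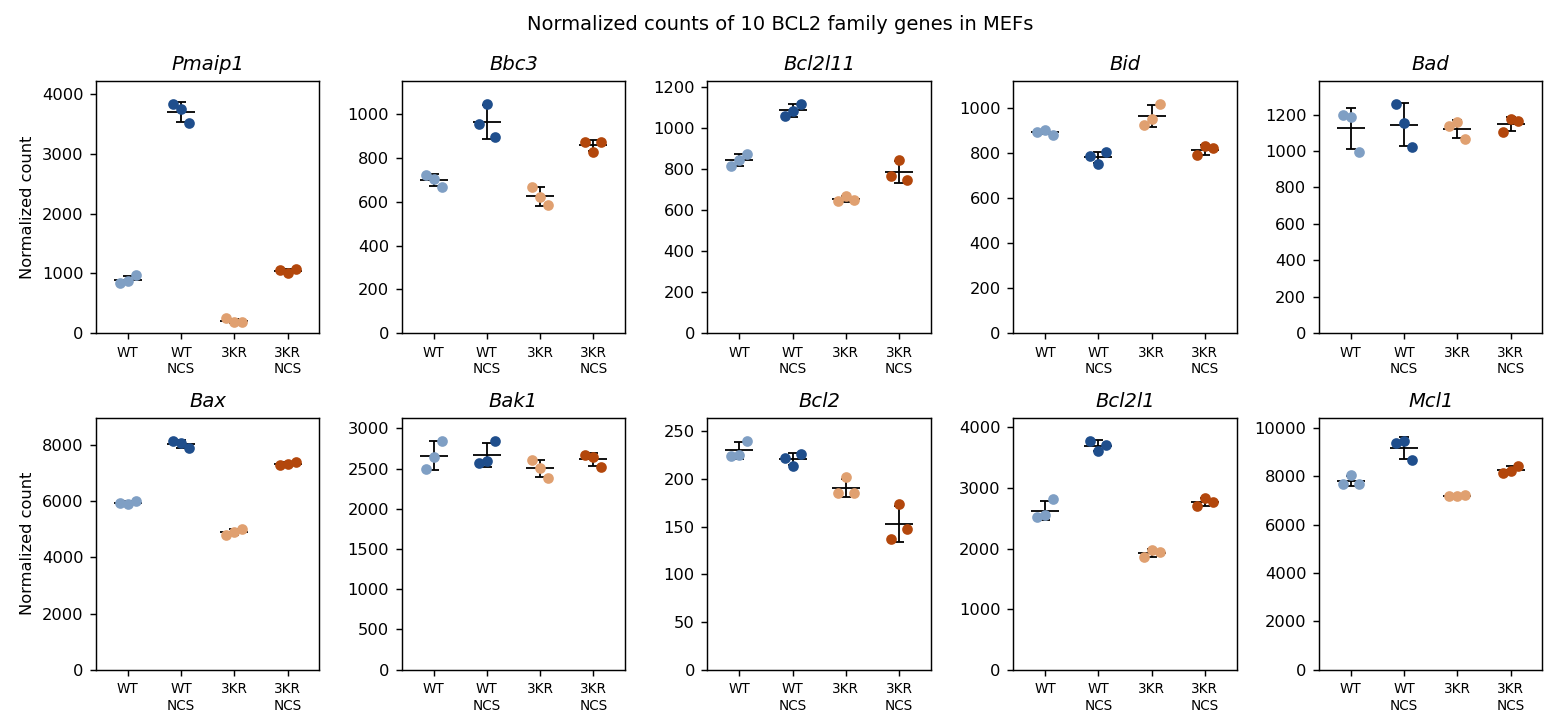
Normalized counts (vertical axes, starting at 0) of the 10 genes in untreated and NCS-treated wild-type (WT) and E2f1 3KR MEFs. Points are single samples, n = 3 per group, and the bars are the mean and SD; the 3KR samples of Pmaip1, at 182 to 245 untreated, lie below every wild-type sample of the same treatment.

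Pmaip1 (ENSMUSG00000024521) encodes NOXA, a BH3-only protein that binds MCL1 above all and is a classical p53 target. It changed the most of the 10 genes in all 4 comparisons. In untreated wild-type MEFs its normalized counts, reads divided by the DESeq2 size factor of the sample, were 844, 873 and 968, and after NCS they were 3837, 3753 and 3520. 3KR MEFs gave 245, 182 and 191 untreated and 1056, 1013 and 1072 after NCS. The 4 groups did not overlap, and the NCS-treated 3KR samples lay only just above the untreated wild-type samples. NCS raised Pmaip1 4.14-fold in wild-type MEFs (log2 fold change 2.05 ± 0.06 SE, adjusted p = 9.73e-17) and 5.10-fold in 3KR MEFs (2.35 ± 0.08 SE, adjusted p = 6.42e-16). The level in 3KR MEFs was 0.230 times that of wild-type MEFs without treatment (log2 difference -2.12 ± 0.08 SE, adjusted p = 4.17e-16) and 0.283 times after NCS (-1.82 ± 0.06 SE, adjusted p = 2.37e-17).

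Bbc3 (ENSMUSG00000002083) encodes PUMA, a BH3-only protein that binds all anti-apoptotic members and is likewise a p53 target. Its normalized counts in wild-type MEFs were 723, 705 and 669 untreated and 953, 1047 and 895 after NCS. The 3KR samples had 668, 620 and 585 untreated and 871, 826 and 875 after NCS. Within each treatment the highest 3KR sample lay just below the lowest wild-type sample, 668.1 against 668.6 untreated and 875 against 895 after NCS. NCS raised Bbc3 by the same factor in both genotypes, 1.38-fold, with a log2 fold change of 0.46 in each and adjusted p-values of 7.28e-06 in wild-type and 8.98e-06 in 3KR MEFs. The genotype difference was small and close to the threshold, -0.17 ± 0.07 SE on the log2 scale without treatment (adjusted p = 0.0397) and -0.17 ± 0.06 SE after NCS (adjusted p = 0.0305). The Wald test of DESeq2 did not call it in either treatment, with adjusted p-values of 0.0818 and 0.0551. Nor did edgeR call it when single samples were left out, namely untreated wild-type replicates 1 and 2 and 3KR replicates 2 and 3 (adjusted p = 0.138, 0.0819, 0.0924 and 0.196) or NCS-treated wild-type replicates 1 and 2 and 3KR replicates 1 and 2 (0.0507, 0.215, 0.0537 and 0.116).

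Bcl2l11 (ENSMUSG00000027381) encodes BIM, an activator BH3-only protein known mainly as a FOXO target induced by loss of survival signals. Normalized counts were 816, 841 and 874 in untreated and 1055, 1084 and 1116 in NCS-treated wild-type MEFs. The corresponding 3KR values were 643, 669 and 647 untreated and 764, 845 and 744 after NCS. The treated 3KR samples thus reached at most the range of the untreated wild-type samples. NCS raised the gene 1.28-fold in wild-type (0.36 ± 0.05 SE, adjusted p = 2.15e-05) and 1.20-fold in 3KR MEFs (0.26 ± 0.06 SE, adjusted p = 0.00120). The 3KR level was 0.772 times the wild-type level untreated (adjusted p = 8.72e-06) and 0.722 times after NCS (adjusted p = 2.06e-07).

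Bid (ENSMUSG00000004446), which links death receptors to mitochondria once caspases have cut it, moved in the opposite direction to Pmaip1, Bbc3 and Bcl2l11. Its normalized counts fell from 894, 901 and 881 to 785, 751 and 802 with NCS in wild-type MEFs. In 3KR MEFs they fell from 925, 951 and 1017 to 790, 828 and 820. In neither genotype did treated and untreated samples overlap. The log2 fold change was -0.20 ± 0.05 SE in wild-type (adjusted p = 0.00680) and -0.25 ± 0.05 SE in 3KR MEFs (adjusted p = 0.000974). All untreated 3KR samples were above the wild-type ones, yet the difference of 0.11 (95% interval -0.0003 to 0.22) did not pass, with an adjusted p of 0.0979. Bid shares 628 bases of exon with Bcl2l13 on the opposite strand in GENCODE M21, and since the strand setting of the counting is not given in the sources used here, reads of the pair may not be separated. Bcl2l13 itself did not pass with NCS in either genotype (adjusted p = 0.753 and 0.982).

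Bad (ENSMUSG00000024959), a BH3-only protein governed mainly by phosphorylation, overlapped between all groups. Its normalized counts ran from 996 to 1197 and from 1020 to 1258 in untreated and treated wild-type MEFs, and from 1063 to 1160 and from 1102 to 1174 in 3KR MEFs. None of the 4 comparisons passed, with adjusted p-values of 0.739 to 0.967, and their 95% intervals lay between -0.16 and 0.19 on the log2 scale. Bad shares 524 bases of exon with Gpr137 on the opposite strand.

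The effector Bax (ENSMUSG00000003873) and its counterpart Bak1 (ENSMUSG00000057789) behaved differently. Normalized counts of Bax, itself a p53 target, were 5923, 5920 and 6014 in untreated and 8160, 8073 and 7899 in NCS-treated wild-type MEFs. For 3KR cells the values were 4792, 4919 and 5021 untreated and 7277, 7339 and 7387 after NCS. Replicates agreed closely and no groups overlapped. NCS raised Bax 1.35-fold in wild-type (0.43 ± 0.03 SE, adjusted p = 1.88e-10) and 1.49-fold in 3KR MEFs (0.58 ± 0.03 SE, adjusted p = 1.28e-12). The genotype difference was -0.28 ± 0.03 SE without treatment (adjusted p = 6.08e-08) and -0.13 ± 0.03 SE after NCS (adjusted p = 0.000927). Bak1 ranged from 2384 to 2847 normalized counts over all 12 samples, the groups overlapped throughout, and none of the comparisons passed, with adjusted p-values of 0.117 to 0.997, although its untreated difference did without untreated wild-type replicate 1 (-0.14, adjusted p = 0.0297). Its response to NCS had a 95% interval of -0.10 to 0.10 in wild-type and -0.04 to 0.17 in 3KR MEFs on the log2 scale. Bak1 shares 437 bases of exon with Ggnbp1 on the opposite strand.

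Promoter windows in the RefSeq table of GRCm38.p6 were searched for 9 of the 10 genes, 15 windows in all. Each window ran from 250 bases before to 50 bases after an annotated start. Pmaip1 was left out of the search, so the presence or absence of a motif in its promoter was not tested. Bax was the only one of the 9 with a p53 response element in its windows, here taken as 2 p53 half-sites on either strand, which are their own reverse complement, at most 13 bases apart, with the C and G of each core kept and at most 2 mismatches in all. Such an element is found in 4.09% of the 32851 promoter windows of the table. The E2F motif, searched as TTTCCCGC, TTTCGCGC, TTTGCCGC and TTTGGCGC on both strands, occurred in 1 window, that of Bcl2l1, and in 2.26% of all windows. Both stretches are shown because they are the only matches among the 9 genes, on the strand of the gene with the match in capitals. The Bax stretch is chr7:45467074-45467103, minus strand, and its match lies 201 to 181 bases before the start, overlapping a further match to the same element. The Bcl2l1 stretch is chr2:152830844-152830873, minus strand, with its match 145 to 138 bases before 1 of 3 annotated starts, and it lies in the leading exon of another Bcl2l1 transcript of GENCODE M21. The Bax stretch lies outside the annotated exons. A match is a description of the letters, and binding was not measured here.
Bax: tcccAGGCAAGCTTTGAACTTGCGGcaatt
Bcl2l1: tccgcgtccctGCGCGAAAccttgagattc

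Among the anti-apoptotic genes, Bcl2l1 (ENSMUSG00000007659), which encodes BCL-XL, rose with NCS in both genotypes and was lower in 3KR MEFs in both treatments. Normalized counts were 2522, 2546 and 2813 in untreated and 3781, 3604 and 3712 in NCS-treated wild-type MEFs. Among 3KR samples they were 1861, 1977 and 1940 untreated and 2706, 2829 and 2769 after NCS. Treated 3KR samples fell within or close to the range of untreated wild-type samples. NCS raised Bcl2l1 1.41-fold in wild-type (0.49 ± 0.04 SE, adjusted p = 3.66e-09) and 1.44-fold in 3KR MEFs (0.52 ± 0.04 SE, adjusted p = 1.88e-09). It was lower in 3KR MEFs by -0.45 ± 0.04 SE untreated (adjusted p = 5.97e-09) and -0.42 ± 0.04 SE after NCS (adjusted p = 1.34e-08), after Pmaip1 the largest untreated difference among the 10 genes. The counts are per gene and do not separate the long, anti-apoptotic from the short, pro-apoptotic splice form of Bcl2l1.

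Mcl1 (ENSMUSG00000038612) encodes the short-lived anti-apoptotic protein that NOXA binds. It had 7681, 8042 and 7692 normalized counts in untreated and 9367, 9469 and 8664 in NCS-treated wild-type MEFs. The 3KR samples had 7192, 7185 and 7213 untreated and 8149, 8229 and 8440 after NCS. None of these groups overlapped, although the shifts were small. NCS raised Mcl1 1.17-fold in wild-type (adjusted p = 2.79e-05) and 1.15-fold in 3KR MEFs (adjusted p = 0.000102). The 3KR level was 0.919 times the wild-type level untreated (adjusted p = 0.00631) and 0.902 times after NCS (adjusted p = 0.00130).

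Bcl2 (ENSMUSG00000057329), the founding anti-apoptotic member, was the least abundant of the 10. Normalized counts were 225, 225 and 240 in untreated and 222, 214 and 226 in NCS-treated wild-type MEFs, which overlapped. 3KR cells had 185, 202 and 186 untreated and 137, 174 and 148 after NCS, which did not. The response to NCS was -0.06 ± 0.10 SE in wild-type (adjusted p = 0.707) and -0.32 ± 0.11 SE in 3KR MEFs (adjusted p = 0.0253). The difference between these responses, -0.26 (95% interval -0.56 to 0.04), did not pass, with an adjusted p of 0.396. Bcl2 was lower in 3KR MEFs by -0.27 ± 0.10 SE untreated (adjusted p = 0.0293) and by -0.54 ± 0.11 SE after NCS (adjusted p = 0.000214). DESeq2 did not call the NCS response in 3KR MEFs (adjusted p = 0.0514) or the untreated difference (adjusted p = 0.0893). In edgeR the former was not called without untreated 3KR replicate 2 or NCS-treated 3KR replicate 1 or 3 (adjusted p = 0.0958, 0.136 and 0.0817), and the latter not without untreated wild-type replicate 3 or untreated 3KR replicate 1 or 3 (0.0933, 0.0872 and 0.0902). Bcl2 shares 558 bases of exon with the antisense gene D630008O14Rik.

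**Figure D2:**
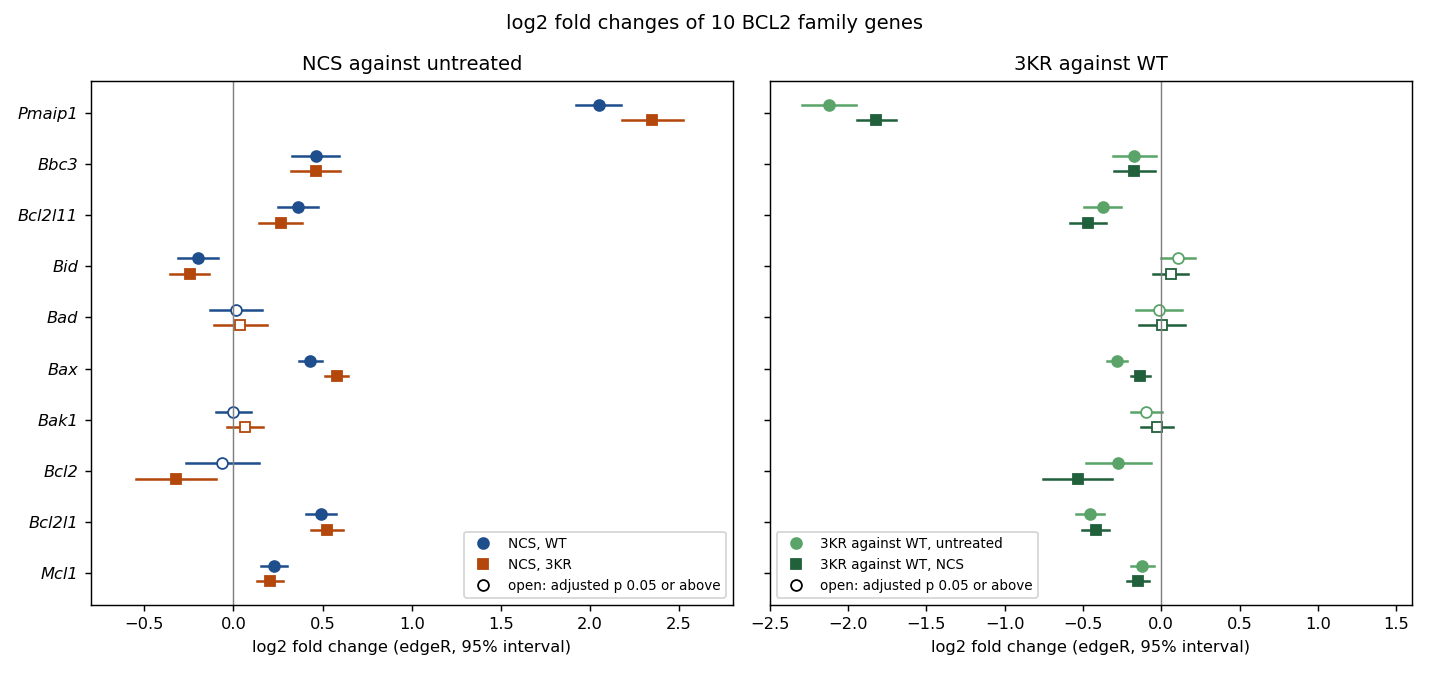
log2 fold changes (horizontal axes) of the 10 genes with NCS in each genotype (left) and between 3KR and wild-type (WT) MEFs in each treatment (right). Symbols are edgeR estimates from 3 samples per group, bars their 95% intervals, filled symbols passed the adjusted threshold; Pmaip1, at 2.05 and 2.35 on the left and -2.12 and -1.82 on the right, lies far from the other 9 genes.

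Whether the genotypes responded differently to NCS was tested by the interaction of genotype and treatment. In the edgeR fit without a replicate block none of the 10 genes passed, 2 had an unadjusted p under 0.05, Bax and Pmaip1, and 3.73% of all tested genes passed, 1.86% with a higher and 1.87% with a lower log2 fold change in 3KR than in wild-type MEFs. With the replicate number within genotype as a block, edgeR called both Bax (adjusted p = 0.00567) and Pmaip1 (adjusted p = 0.0485). That fit called 1379 of 15327 tested genes. By correlation, the replicate numbers pair the wild-type samples alone and not the 3KR samples. The Bax difference was 0.15 ± 0.04 SE on the log2 scale, higher in 3KR MEFs. It did not pass in edgeR without the block (adjusted p = 0.0572). DESeq2, which called 5.66% of the genes it tested, called it (0.14, adjusted p = 0.0241). Without the wild-type replicates numbered 3, edgeR called Bax as well, with a difference of 0.13 and an adjusted p of 0.00732, making 1 of the 10 genes, but 1842 of 15565 tested genes (11.8%) then passed in place of 572 of 15327. Leaving out only the untreated one of them gave Bax a difference of 0.14 and an adjusted p of 0.0305. For Pmaip1 the difference was 0.30 ± 0.11 SE, higher in 3KR MEFs, and did not pass in edgeR without the block (adjusted p = 0.126). It was 0.21 (adjusted p = 0.145) without the wild-type replicates numbered 3. The untreated 3KR samples moved the Pmaip1 difference both ways. It rose to 0.44 (adjusted p = 0.0229) without replicate 1, the highest of its group. Without replicate 2 or 3 it fell to 0.22 (adjusted p = 0.372) or 0.25 (adjusted p = 0.354). For Bbc3, Bcl2l1 and Mcl1 the 95% intervals of the difference were -0.19 to 0.19, -0.09 to 0.16 and -0.13 to 0.08.

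Levels can be compared between genes only per length, here as CPM per kilobase of exon. In untreated wild-type MEFs the order was Bax at 99.2 ± 0.989 (SD, n = 3), Mcl1 at 59.9 ± 1.52, Bak1 at 29.0 ± 1.94, Bcl2l1 at 15.04 ± 0.937, Bad at 11.6 ± 1.15, Bbc3 at 8.64 ± 0.341, Pmaip1 at 8.60 ± 0.627, Bid at 6.60 ± 0.0701, Bcl2l11 at 2.76 ± 0.0950 and Bcl2 at 0.659 ± 0.0257. Only Bbc3 and Pmaip1 were neighbours whose samples overlapped. Bax made up 41.0% of the sum over the 10 genes and Mcl1 24.8%. NCS moved Pmaip1 from rank 7 to rank 3, at 35.5 ± 1.71, above Bak1. In untreated 3KR MEFs Pmaip1 stood at rank 9 with 1.97 ± 0.326, its samples overlapping those of Bcl2l11 at 2.13 ± 0.0444, and after NCS at rank 7 with 10.0 ± 0.303. The other genes kept their order with few exchanges, and Bax, Mcl1 and Bcl2 held ranks 1, 2 and 10 in all 4 groups. When the longest transcript replaced the union of exons, Pmaip1 stood at rank 8 and 4 in untreated and treated wild-type MEFs and at the same ranks as before in 3KR MEFs.

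**Figure D3:**
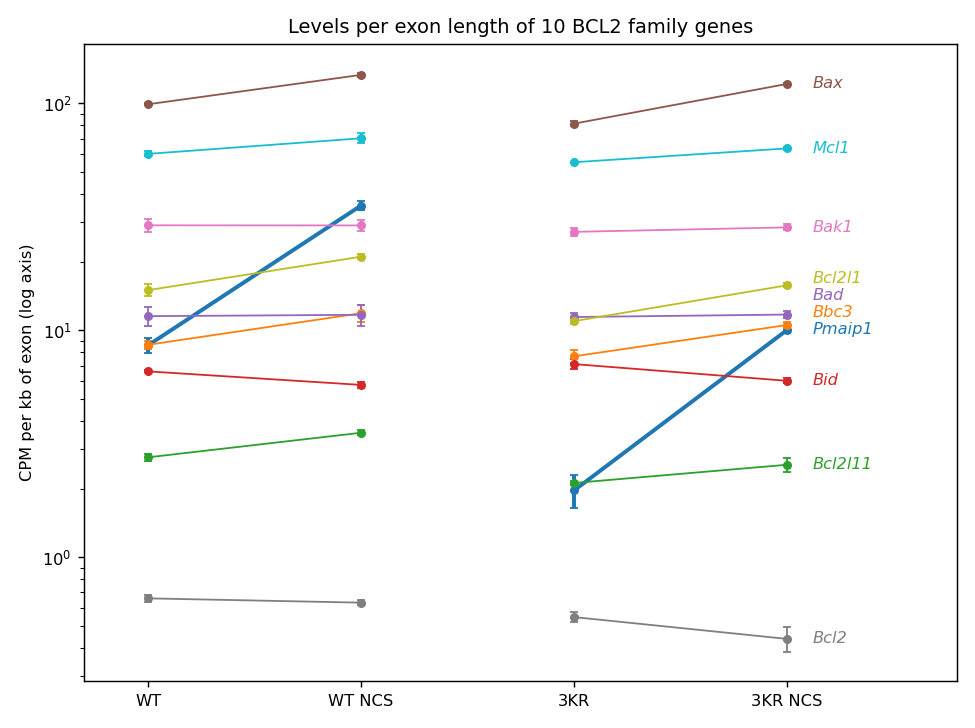
Levels per exon length (CPM per kilobase of exon, log axis) of the 10 genes in the 4 groups. Points are means, bars the SD over 3 samples, and lines join the untreated and the NCS group of a genotype; Pmaip1 moved from 8.60 to 35.5 in wild-type (WT) and from 1.97 to 10.0 in 3KR MEFs, across several other genes.

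Ratios within a sample show how far partners moved apart. Per length, Pmaip1 amounted to 14.4% ± 1.20 (SD, n = 3) of Mcl1 in untreated and 50.6% ± 0.857 in NCS-treated wild-type MEFs. The share was 3.58% ± 0.593 in untreated and 15.8% ± 0.415 in treated 3KR MEFs. The treated 3KR samples, at 15.4% to 16.2%, overlapped the untreated wild-type samples at 13.6% to 15.7%. For Bcl2l1 against Bax the ratio moved little with NCS, from 15.2% ± 0.792 to 15.8% ± 0.417 in wild-type and from 13.5% ± 0.291 to 12.97% ± 0.251 in 3KR MEFs, and every 3KR sample lay below every wild-type sample. Mcl1 against Bax dropped from 60.5% ± 1.94 to 52.5% ± 1.80 in wild-type and from 67.6% ± 1.495 to 52.0% ± 0.577 in 3KR MEFs. These are ratios of RNA levels and do not give the proteins.

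Of 15 further family members listed, 13 were in the files and 8 passed the filter, and 2 (Bcl2a1a and Bcl2a1d) were not analysed here. With NCS, Bcl2l2 and Bok rose in both genotypes. Bcl2l2, which encodes the anti-apoptotic BCL-W, rose by 0.12 in wild-type (adjusted p = 0.0206) and 0.25 in 3KR MEFs (adjusted p = 2.53e-05), and Bok, a BAX-like effector, by 0.16 (adjusted p = 0.0172) and 0.20 (adjusted p = 0.00402) on the log2 scale. Both were lower in untreated 3KR MEFs, Bcl2l2 by -0.31 and Bok by -0.34. Of the 8, 4 were higher in untreated 3KR MEFs, the mitophagy receptors Bnip3 (0.21, adjusted p = 0.0157) and Bnip3l (0.22, adjusted p = 0.00344), the BH3-only gene Bmf (0.26, adjusted p = 0.0498) and Bcl2l14 (1.23, adjusted p = 0.0367), the last at 2.07 to 12.2 normalized counts in wild-type and 17.3 to 19.2 in 3KR samples. After NCS only Bnip3 was still higher (0.30, adjusted p = 0.00107), Bcl2l2 and Bok were again lower, and Bmf fell with NCS in 3KR MEFs (-0.31, adjusted p = 0.0331). The DESeq2 Wald test called Bnip3l alone of the 4 in untreated cells, with adjusted p-values of 0.0698 for Bnip3, 0.100 for Bmf and 0.0885 for Bcl2l14, and it did not call the fall of Bmf (adjusted p = 0.0578). Bcl2l12 and Bcl2l13 did not pass in any comparison. With all samples, the shares of the 8 genes called in edgeR were 25% and 37.5% for NCS in wild-type and 3KR MEFs, against 26.7% and 30.8% of all tested genes, and 75% and 37.5% between untreated and treated genotypes, against 45.7% and 46.5%. The wild-type NCS share was near the background. None of the 8 passed the test for a difference in response. Leaving out the wild-type replicates numbered 3 gave 3 higher and 1 lower with NCS in wild-type, 3 higher and 2 lower with NCS in 3KR MEFs, 2 higher and 2 lower in untreated 3KR MEFs, 1 higher and 2 lower after NCS, and 1 gene with a difference in response, where 32.7%, 39.7%, 48.8%, 49.7% and 11.8% of all tested genes were called. Bcl2l10 had no read in any sample, which allows at most 3 reads per library or 0.0904 CPM at the shallowest depth, and Bcl2a1b, Hrk, Bik and Bcl2l15 stayed under the filter with at most 16.6 normalized counts. Of these, Hrk, known from neurons, and Bcl2a1b, known from blood cells, had at most 3.08 and 3.98 normalized counts.

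The regulators behind the family were read through E2f1, Trp53 and a list of p53 targets. E2f1 RNA, at 1042 to 1296 normalized counts in untreated wild-type and 1111 to 1128 in untreated 3KR MEFs, did not pass in any comparison. The 3KR allele differs in codons, which counts per gene do not show, so they do not test the genotype labels. Trp53 did not pass with NCS, and it was 0.10 higher on the log2 scale in NCS-treated 3KR MEFs (adjusted p = 0.0168). Of 25 genes on the p53 list, 17 rose and 2 fell with NCS in wild-type MEFs and 18 rose and 2 fell in 3KR MEFs, with medians of 0.58 and 0.77, where 26.7% and 30.8% of all tested genes changed. In untreated 3KR MEFs 15 were lower and 2 higher than in wild-type MEFs, with a median of -0.29, and after NCS 13 were lower and 4 higher, with a median of -0.09, where 45.7% and 46.5% of all tested genes differed. Cdkn1a, the cell cycle inhibitor p21, rose from 17070 to 18010 normalized counts to 38960 to 39930 in wild-type (log2 fold change 1.18, adjusted p = 1.32e-18) and from 9734 to 9882 to 24530 to 25140 in 3KR MEFs (1.34, adjusted p = 1.02e-19). Mdm2, the ligase that degrades p53, rose by 0.84 and 0.96, and was lower in 3KR MEFs by -0.79 untreated and -0.66 after NCS. Ccng1 and Eda2r had the lowest p-values of the list with Cdkn1a for NCS in wild-type MEFs, at 1.01 and 1.29. For the difference in response, 8 of the 25 passed, all with the stronger response in 3KR MEFs, where 3.73% of all tested genes passed. With the wild-type replicates numbered 3 left out, 19 rose and 2 fell with NCS in wild-type and 20 rose and 2 fell in 3KR MEFs, 15 were lower and 4 higher in untreated 3KR MEFs, 14 were lower and 4 higher after NCS, and 9 differed in response. Of all tested genes 32.7%, 39.7%, 48.8%, 49.7% and 11.8% were called in these 5 comparisons of that fit.

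Genes that act on BCL2 proteins or downstream of them were read through a further pair of lists. Of 18 tested genes for BCL2 protein control, 5 rose with NCS in wild-type and 7 in 3KR MEFs, none fell, and the medians were 0.07 and 0.06. The shares called were 27.8% and 38.9%, against 26.7% and 30.8% of all tested genes, so the wild-type share was near the background. Ei24, a p53-induced gene whose product binds BCL2, led them with 1.12 in wild-type (adjusted p = 1.24e-15) and 1.16 in 3KR MEFs (adjusted p = 5.70e-16). The co-chaperone Bag1 rose slightly, by 0.14 in wild-type and 0.12 in 3KR MEFs. Tmbim6, a membrane protein of the endoplasmic reticulum, rose by 0.12 in wild-type and 0.10 in 3KR MEFs. Between untreated genotypes 10 of the 18 were lower and 2 higher in 3KR MEFs, among them the 14-3-3 gene Ywhag (-0.34), Vdac2, whose product holds BAK at mitochondria (-0.26), and Ei24 (-0.26). After NCS 10 were lower and 1 higher. These shares were 66.7% and 61.1%, against 45.7% and 46.5% of all tested genes. Leaving out the wild-type replicates numbered 3, where 32.7% and 39.7% of all tested genes changed with NCS, gave 10 genes that rose and 1 that fell in each genotype. It gave 12 lower and 2 higher in untreated 3KR MEFs (48.8% of all tested genes called) and 12 lower and none higher after NCS (49.7%). A difference in response passed in 4 genes where none passed with all samples, beside 11.8% of all tested genes in place of 3.73%. Of 13 genes for the mitochondrial channel and the factors released through the outer membrane, 2 rose and 1 fell with NCS in wild-type and 3 rose and 1 fell in 3KR MEFs, shares of 23.1% and 30.8% that were near those of all tested genes, 26.7% and 30.8%. Apaf1, the scaffold of the apoptosome, rose by 0.89 (adjusted p = 3.31e-14) and 1.04 (adjusted p = 1.77e-15), Vdac1 by 0.09 and 0.14, and Aifm1 had a value of -0.12 in wild-type (adjusted p = 0.0229) and -0.07 in 3KR MEFs (adjusted p = 0.152). In untreated 3KR MEFs 6 of the 13 were higher, led by Hspa9 (0.25), and 3 lower, and after NCS 5 were higher and 3 lower, 69.2% and 61.5% of the list against 45.7% and 46.5% of all tested genes. The same omission gave 3 that rose and 3 that fell with NCS in wild-type and 4 and 1 in 3KR MEFs, 6 higher and 4 lower in both genotype comparisons (48.8% and 49.7% of all tested genes called), and 2 of 13 with a difference in response (11.8% of all tested genes) where none passed with all samples.

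Of 17 listed genes, transcription factors with known BCL2 family targets and the p53 cofactors Ppp1r13b and Trp53bp2, 16 were tested. With NCS, 5 rose and 4 fell in wild-type and 6 rose and 5 fell in 3KR MEFs, 56.2% and 68.8% of the list against 26.7% and 30.8% of all tested genes. Foxo3, an activator of Bcl2l11 and Bbc3, rose by 0.40 in wild-type (adjusted p = 4.14e-08) and 0.50 in 3KR MEFs (adjusted p = 1.43e-09), and Foxo1 by 0.34 and 0.13. Ddit3, the stress factor CHOP, fell by 0.41 in wild-type and 0.30 in 3KR MEFs on the log2 scale. Untreated 3KR MEFs had higher levels of 8 of the 16 and lower levels of 3, the lowest p-values belonging to Atf4 (0.29, adjusted p = 3.57e-09), Stat3 (0.28, adjusted p = 9.17e-08) and Nfkb1 (0.30, adjusted p = 2.78e-07), all higher. After NCS 6 were higher and 3 lower. The shares called between genotypes were 68.8% and 56.2%, against 45.7% and 46.5% of all tested genes. None of the genes of these 3 lists passed the test for a difference in response with all samples. For the transcription factors and cofactors, leaving out the wild-type replicates numbered 3 gave 6 that rose and 4 that fell with NCS in wild-type MEFs. It gave 7 and 5 in 3KR MEFs, 8 higher and 2 lower in untreated 3KR MEFs, and 6 and 3 after NCS. A difference in response passed in 1 gene. Of all tested genes 32.7%, 39.7%, 48.8%, 49.7% and 11.8% passed in these 5 comparisons.

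**Figure D4:**
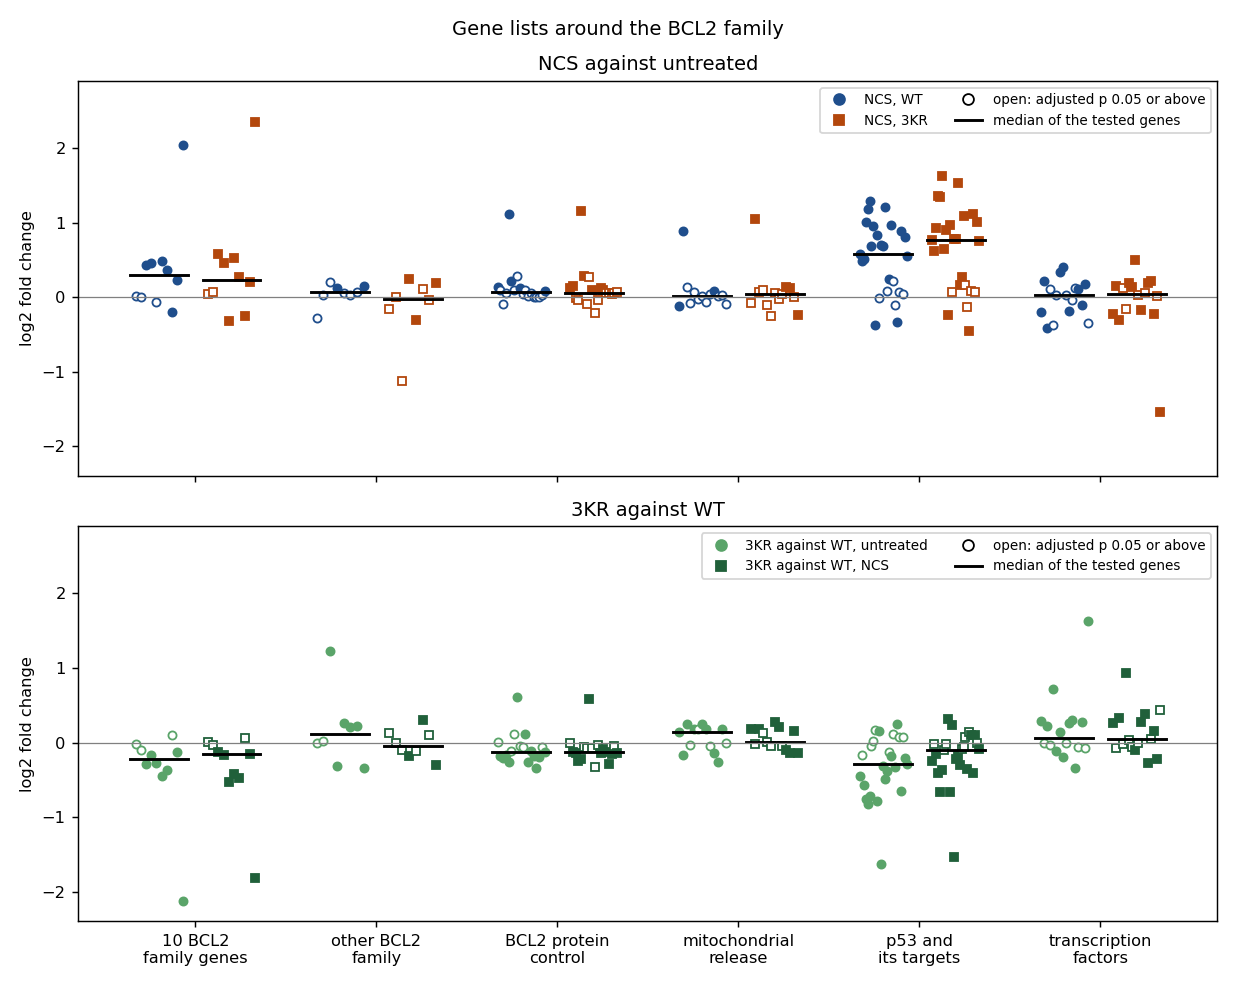
log2 fold changes (vertical axes) of the tested genes in 6 lists with NCS in each genotype (top) and between 3KR and wild-type (WT) MEFs in each treatment (bottom). Each symbol is 1 gene, filled where the adjusted p passed, and black lines are list medians; the p53 list has the highest medians with NCS, 0.58 and 0.77, followed by the 10 BCL2 family genes at 0.29 and 0.23.

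The genes most like each member were sought among the other tested genes with a mean log2 CPM of at least 3, 9602 genes in all with the members, by the Pearson correlation of log2 CPM over the 12 samples. Since the 12 points share 4 groups and their depth, the coefficients describe the pattern over groups, and no p was computed. The neighbours depended on the measure, since by Spearman's rank correlation 5 of the 10 genes (Pmaip1, Bak1, Bcl2l11, Bcl2l1 and Mcl1) shared none of their 3 nearest genes with those given here and the other 5 shared 1. By Pearson's r, Pmaip1 was closest to Mdm2 (r = 0.994), Gsn (0.992) and Cdc42se1 (0.992). Bax was closest to Zfp385a (0.998), Slc19a2 (0.997) and Inka2 (0.997), and Bcl2l1 to Fnip2 (0.994), Arap2 (0.993) and Ankrd44 (0.992). Bbc3 came nearest to Mybl1 (0.977), Ybx1 (0.976) and Zfp365 (0.974), Bcl2l11 to Ereg (0.988), Spsb1 (0.987) and Myo5a (0.986), and Mcl1 to Ccng2 (0.979), H2afj (0.976) and Prkar1a (0.975). Bid was nearest to Rdh10 (0.972), Ung (0.969) and Det1 (0.963), and Bcl2 to Alg10b (0.978), Tmtc1 (0.968) and St3gal5 (0.963). Bad, with Cwc15 (0.919), Sec13 (0.918) and Ndufa7 (0.900), and Bak1, with Ubqln4 (0.870), Tead1 (0.870) and Tsc2 (0.869), had the lowest coefficients, and these are also the genes that passed in no comparison.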

How the data were processed

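Per the labels and methods, stranded poly(A) RNA libraries were aligned to mm9 with TopHat, and the authors deposited raw counts per Ensembl gene from HTSeq, neither normalized nor filtered. DESeq is also named in the submitters' processing notes, without versions. Symbols and exon lengths were taken from GENCODE M21 (GRCm38), which holds 32919 of the 37991 identifiers (5072 unmatched) and 99.4% or more of the counts in any sample. Because the builds differ, gene coordinates are not given, and promoter windows carry those of GRCm38.p6. Counts were filtered with filterByExpr, TMM-normalized and tested in edgeR 4.0.16 (R 4.3.3), with 1 coefficient per group and all 12 samples. DESeq2 1.42.0 gave size factors and the alternative test. The steps were tested on simulated data. The members and gene lists were chosen with earlier results of these data known.

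Named genes were the 10 members, the other family members that passed the filter, the 3 lowest p-values per list in the wild-type NCS response and in the untreated genotype comparison, the 3 most similar genes per member, and E2f1, Trp53, Cdkn1a and Mdm2. Same-numbered untreated and NCS samples deviated together in wild-type MEFs (correlations 0.267, 0.234 and 0.468 over 9602 genes, although replicates 1 and 2 correlated as well across numbers) and not in 3KR MEFs (0.00102, 0.0502 and 0.00241) or across genotypes. By the rule used, the numbers pair the wild-type samples alone. Depth limits Bcl2 most, and floors cover counting error only.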

Additional observations from a re-analysis of the deposited data

Results flagged for a closer look

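In 3 of the p53 list genes named above, the response to NCS differed between genotypes by the interaction test of edgeR, each with the larger rise in 3KR MEFs. The difference on the log2 scale was 0.16 for Cdkn1a (adjusted p = 0.0189), 0.34 for Ccng1 (adjusted p = 5.73e-05) and 0.34 for Eda2r (adjusted p = 0.00710). All 3 were lower in untreated 3KR than in untreated wild-type MEFs, by -0.83, -0.76 and -0.72. Values of single genes in groups of 3 samples were not tested for outlying samples.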

How the results depend on the processing

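In all alternatives run, Pmaip1, Bax, Bcl2l11, Bcl2l1 and Mcl1 kept their calls for NCS in both genotypes and between genotypes in both treatments, as did Bbc3 and Bid for NCS and Bcl2 between genotypes after NCS. Bbc3 was called in 7 of 14 alternatives for the untreated and 8 of 14 for the NCS-treated genotype difference, and Bcl2 in 8 of 14 for the untreated difference and 10 of 14 for NCS in 3KR MEFs. Scaling by library totals moved the share of called genes that rose with NCS from 53.5% to 33.7% in wild-type and from 51.2% to 34.4% in 3KR MEFs, with no lost NCS call among the 10 genes.

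For the difference in response, several alternatives called 1 of the 10 genes in place of 0. These were library totals, the DESeq2 Wald test, no low-count filter and at least 10 counts in every sample. The same held without both wild-type replicates numbered 3, an alternative chosen after seeing the data, with 1842 of all genes called against 572. The DESeq2 Wald test called 633 of 11180 genes (5.66%), where the main fit called 3.73%. Library totals called 591 of 15327 tested genes. With no low-count filter 794 of 24639 were called, and with at least 10 counts in every sample 680 of 13433. With the replicate number within genotype as a block, edgeR called 2 of the 10 genes, Bax (adjusted p = 0.00567) and Pmaip1 (0.0485). That fit called 1379 of 15327 tested genes. The block changed no other call of the 10 genes. Leaving out 1 sample at a time gave 0 to 1 of the 10. Of all tested genes it gave from 345 of 15603 to 1159 of 15654. The lowest was without untreated 3KR replicate 3 and the highest without untreated wild-type replicate 3.

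Only values that passed in no setting changed sign, and the cause was not tested. For the NCS response in wild-type MEFs, Bak1 was 0.0038 with DESeq2 size factors, 0.0034 in the DESeq2 Wald test, 0.0039 without both wild-type replicates numbered 3 and -0.0483 to 0.0513 with 1 sample left out. Bad was -0.0322 with library totals and -0.0616 to 0.0899 with 1 sample left out, and -0.0081 with library totals in 3KR MEFs. For the difference in response, Bbc3 was -0.005, -0.0057 and -0.0034 with DESeq2 size factors, the Wald test and no filter, Bbc3 and Bcl2l1 were -0.0228 and -0.0172 without both wild-type replicates numbered 3, and the ranges with 1 sample left out were -0.0523 to 0.0657 for Bbc3, -0.0181 to 0.0629 for Bcl2l1 and -0.0548 to 0.0993 for Bad. Between genotypes, Bad ranged from -0.095 to 0.0325 untreated and from -0.0657 to 0.0787 after NCS, and Bak1 from -0.0532 to 0.0235 after NCS, with 1 sample left out. Without both wild-type replicates numbered 3 these NCS-treated differences were -0.0661 for Bad and 0.0227 for Bak1.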
